A study of Mus musculus with 54 samples.

Results

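Chemokine receptors were followed through 8 genes chosen by their symbols (Ccr1, Ccr2, Ccr3, Ccr7, Ccrl2, Cx3cr1, Cxcr4 and Ackr3) out of the 39179 genes counted in each library, across all 15 conditions of the series. The cells were adherent macrophages from the peritoneum of C57BL/6 mice of 8 to 20 weeks, collected 4 days after thioglycolate. In the 24 h experiment, cells of 3 mice stayed without stimulus (M0), received 100 ng/ml LPS with 50 ng/ml IFN-γ (M1-like) or received 10 ng/ml IL-4 (M2-like), and counts of the 2 technical replicates of a sample were added up. The reprogramming experiment had 12 conditions with 3 replicates each. M0, M1-like and M2-like macrophages were left untransfected or were mock transfected, that is, with the transfection reagent alone. M2-like macrophages were also transfected with a negative siRNA pool, with a pool against E2f1, Myc, Pparg or Stat6, or with these 4 pools combined (iM1). These M2-like macrophages had been kept with IL-4 for 24 h before transfection and without it afterwards, and RNA was taken 48 h after transfection. Whether the M1-like macrophages of this experiment stayed in LPS and IFN-γ is not given in the sources used here. The labels do not say from which cultures or mice the 3 replicates of a reprogramming condition came. In its methods for RNA isolation and quantitative PCR, the paper names 3 biological replicates of iM1, M0, M1-like and M2-like macrophages. The other conditions are not named there. The p-values of this experiment measure the spread between these samples, which may be technical where biological replicates are not named.

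Chemokines are small secreted proteins that draw leukocytes along a gradient. Most of their receptors sit in the plasma membrane and signal through inhibitory G proteins to phosphoinositide 3-kinase and Rac, which moves the cell front, and arrestins then switch them off. Ccr1, Ccr2 and Ccr3 are inflammatory receptors, Ccr2 being the one by which Ccl2 draws monocytes out of the bone marrow and Ccr3 the eotaxin receptor of eosinophils. Ccr7 leads mature dendritic cells and lymphocytes to the lymph node. Cx3cr1 is the receptor of fractalkine, found on patrolling monocytes and many resident macrophages, and Cxcr4 is the receptor of Cxcl12, which keeps leukocytes in the bone marrow. Ccrl2 and Ackr3 are atypical receptors that do not signal through G proteins: Ccrl2 holds chemerin at the cell surface for the receptor Cmklr1, and Ackr3 takes up Cxcl12.

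On GRCm38, 5 of the 8 genes lie on chromosome 9, namely Ccr1 (ENSMUSG00000025804, chr9:123962124-123968692, minus strand), Ccr3 (ENSMUSG00000035448, chr9:124021972-124031689, plus), Ccr2 (ENSMUSG00000049103, chr9:124101950-124113557, plus), Ccrl2 (ENSMUSG00000043953, chr9:111054486-111057519, minus) and Cx3cr1 (ENSMUSG00000052336, chr9:119901616-120069879, minus). Cxcr4 (ENSMUSG00000045382, chr1:128588199-128592293, minus) and Ackr3 (ENSMUSG00000044337, chr1:90203980-90216751, plus) lie on chromosome 1, and Ccr7 (ENSMUSG00000037944, chr11:99144196-99155077, minus) lies on chromosome 11. All values below are read counts over the exons of these gene models, 5′ and 3′ untranslated regions included. The model of Cx3cr1 shares exonic positions with the antisense gene Gm33858, and whether counting used strand is not given in the sources used here, so its counts are less certain than those of the other members.

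Promoter sequences from RefSeq (GRCm38.p6) were matched by symbol for 7 of the 8 members, all but Ccr7. The window from 250 bases before to 50 after the start was searched on both strands for the kappaB consensus, which NF-kB binds, and a match was found in the windows of Ccr1, Ccr3 and Ccrl2, beginning 74, 179 and 56 bases before the start. Of all 32851 promoter windows, 8.46% held such a match. The 250 bases before the start of these 3 genes are shown because they hold the match; each runs 5′ to 3′ on the strand of the gene, and capitals mark the kappaB match. They cover chr9:123968693-123968942 (Ccr1), chr9:124021721-124021970 (Ccr3) and chr9:111057519-111057768 (Ccrl2, the first of its 3 listed promoters). The other 2 promoters listed for Ccrl2 held no match.
Ccr1: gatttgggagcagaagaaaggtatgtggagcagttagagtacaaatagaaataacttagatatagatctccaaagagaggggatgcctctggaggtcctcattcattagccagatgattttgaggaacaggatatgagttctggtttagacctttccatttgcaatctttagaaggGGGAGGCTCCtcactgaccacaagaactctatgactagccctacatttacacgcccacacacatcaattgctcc
Ccr3: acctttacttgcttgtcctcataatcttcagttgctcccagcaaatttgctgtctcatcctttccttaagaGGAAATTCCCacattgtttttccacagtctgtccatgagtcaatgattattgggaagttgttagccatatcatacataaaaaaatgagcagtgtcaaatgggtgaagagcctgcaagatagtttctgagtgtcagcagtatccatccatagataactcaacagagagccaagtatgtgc
Ccrl2: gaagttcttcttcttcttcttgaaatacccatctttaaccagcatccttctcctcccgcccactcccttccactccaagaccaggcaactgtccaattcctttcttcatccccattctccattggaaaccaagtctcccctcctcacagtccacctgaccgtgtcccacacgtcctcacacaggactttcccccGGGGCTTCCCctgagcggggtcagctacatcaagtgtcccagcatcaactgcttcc

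None of the 7 members' windows held any of 5 other motifs, searched on both strands. These were the STAT6 site with 4 bases between its arms (in 6.95% of all windows), the E-box of Myc (CACGTG, 7.15%), an E2F site (TTTGGCGC, 0.514%), the DR1 direct repeat of PPAR (0.0396%) and the core of the interferon-stimulated response element (3.44%). A match is a run of letters, not a bound site, and its absence covers this window alone.

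Depth was 39577911 to 59443987 counted reads per mouse and condition at 24 h and 13421854 to 19704195 per library in the reprogramming experiment. All 7 macrophage markers were present in every condition, with sums of 6211 to 18320 CPM (a gene's counts relative to the normalized library size), lowest in the M1-like libraries of the reprogramming experiment. Of the eosinophil markers, Epx, Prg2, Prg3 and Ear6 did not exceed 0.141 CPM in any sample, whereas Il5ra reached 0.761 and Siglecf 45.8 CPM. The sum of this list was 0.416 to 46.1 CPM over all samples. Of the neutrophil markers, S100a9, Ly6g, Camp and Retnlg did not exceed 0.860 CPM in any sample. Csf3r reached 162, Mmp8 110, S100a8 13.4 and Ltf 2.68 CPM. Sums of the other lists over all samples were 80.5 to 197 CPM for neutrophil, 5.42 to 43.9 for dendritic cell, 4.64 to 129 for B cell, 0.724 to 8.63 for T and NK cell, 0.174 to 9.80 for mast cell and 5.28 to 208 CPM for mesothelial and fibroblast markers, the last at most 12.8 CPM at 24 h. In bulk RNA, fewer cells of a type and less RNA per cell cannot be told apart. Each siRNA pool left 21.9% to 38.0% of its target's level in the negative pool, and iM1 macrophages kept 28.3% to 60.4%, with no overlap of the 3 replicates for any of the 4 targets.

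Across the members, levels spanned several orders of magnitude. In CPM per kilobase of exon, the scale on which genes can be compared with each other, Cxcr4, Ccrl2 and Ccr1 held the first 3 places in every condition except M1-like macrophages at 24 h. There the order was Ccrl2 with a mean of 229, Ccr1 with 30.8, Ccr7 with 16.1 and Cxcr4 with 14.3 CPM per kilobase. Ccr2, Ccr3, Cx3cr1 and Ackr3 had means of at most 1.63 CPM per kilobase in every condition. Ackr3 had 0 to 12 counts in all samples but 1 and passed the expression filter in neither experiment, and Ccr3 passed it at 24 h alone, so that 7 members were tested at 24 h and 6 in the reprogramming experiment. A gene was called different at an adjusted p under 0.05 from edgeR's quasi-likelihood test with Benjamini-Hochberg adjustment over all genes tested, 16110 at 24 h and 14172 in the reprogramming experiment. All adjusted p-values below come from this test, and log2 fold changes are given with their standard error (SE).

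After 24 h of polarization, M1-like macrophages had more Ccrl2, Ccr7 and Ccr1 and less Cxcr4, Ccr2 and Cx3cr1 than M0, and M2-like macrophages had more Ccr1 and Ccr3 and less Ccrl2, Cxcr4 and Cx3cr1. In M1-like against M0, 6 of the 7 members tested were called (3 higher, 3 lower), beside 72.9% of all genes tested. In M2-like against M0 it was 5 of 7 (2 higher, 3 lower) beside 27.9%, and in M1-like against M2-like 5 of 7 (2 higher, 3 lower) beside 72.6%. These 3 comparisons share their samples and are not independent of each other.

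**Figure D1:**
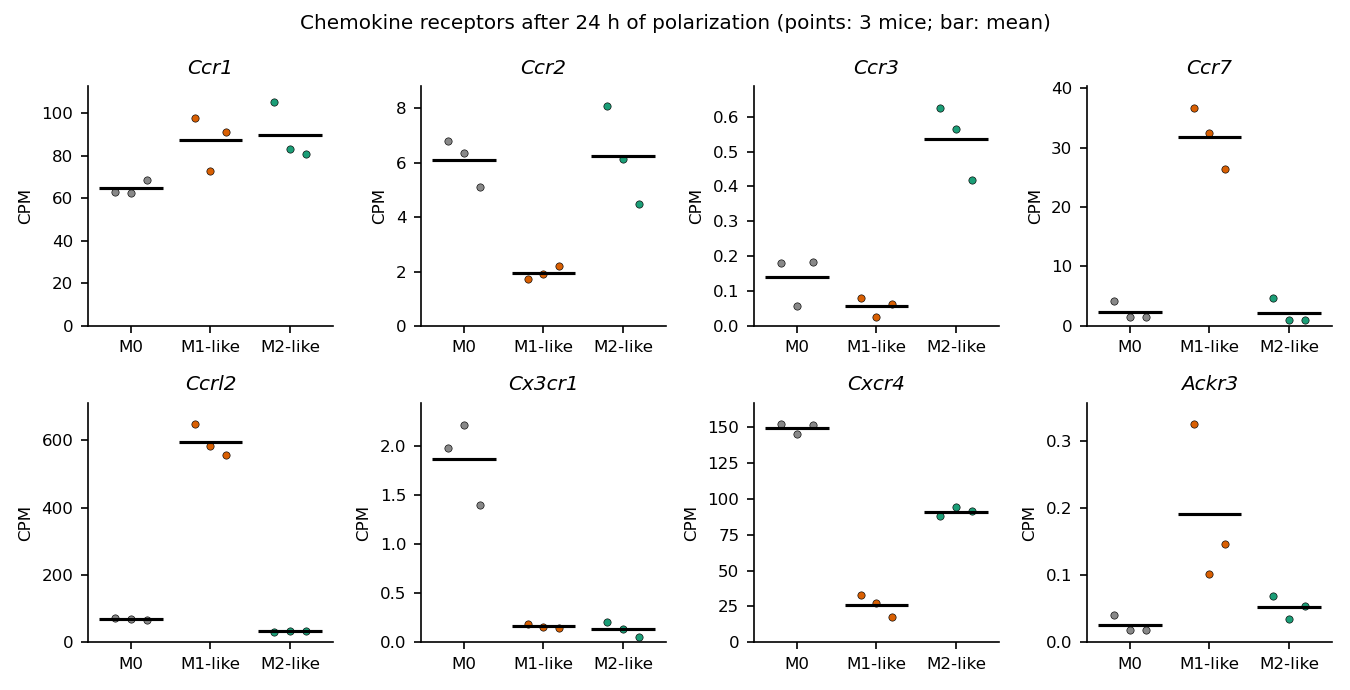
Normalized level in CPM (y axis) of the 8 chemokine receptor genes in M0, M1-like and M2-like macrophages after 24 h (x axis); points are the 3 mice and the bar is their mean. Ccrl2 and Ccr7 stand apart at the top in the M1-like samples, at 556 to 647 and 26.4 to 36.6 CPM, and Cxcr4 is lowest there, at 17.4 to 32.9 CPM.

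Ccr7, the lymph node homing receptor, was at 36.6, 32.5 and 26.4 CPM in the M1-like samples of mice 1, 2 and 3. It was at 4.12, 1.45 and 1.53 CPM in M0 and at 4.72, 0.937 and 1.03 CPM in M2-like samples, so that every M1-like sample lay above all the others. Its log2 fold change was 3.76 (SE 0.50, adjusted p = 2.5e-05) against M0 and 3.90 (SE 0.51, adjusted p = 2.1e-05) against M2-like macrophages, whereas M0 and M2-like samples overlapped (-0.14, SE 0.56, adjusted p = 0.88). Mouse 1 had the highest level in all 3 conditions. Without its M0 sample the first value became 4.44, and without its M2-like sample the second became 5.01. The summed dendritic cell markers, to which Ccr7 does not belong, were also highest in mouse 1 in M0 (11.0 against 6.84 and 5.94 CPM) and in M2-like samples (27.6 against 14.9 and 13.7 CPM), and were at 22.7, 23.0 and 17.4 CPM in M1-like samples. Their part in the level of Ccr7 was not tested.

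Ccrl2, the chemerin-binding atypical receptor, was at 647, 584 and 556 CPM in M1-like, 72.0, 69.1 and 65.8 CPM in M0 and 30.7, 34.7 and 33.9 CPM in M2-like samples. The 3 conditions did not overlap, and M1-like macrophages had 8.64 times the level of M0 (log2 fold change 3.11, SE 0.08, adjusted p = 6.4e-12) and 18.0 times that of M2-like macrophages (4.17, SE 0.08, adjusted p = 1.1e-12). Against M0, M2-like macrophages fell by 1.06 on the log2 scale (SE 0.08, adjusted p = 2.2e-06). The other atypical receptor, Ackr3, had 12, 4 and 7 counts in M1-like, 2, 1 and 1 in M0 and 3, 2 and 3 in M2-like samples. The M1-like counts lay above the others, but Ackr3, with no more than 0.324 CPM, was not tested.

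Among the inflammatory receptors, Ccr1 was at 97.6, 72.6 and 91.2 CPM in M1-like samples and at 105, 83.1 and 80.8 CPM in M2-like ones, with 62.8, 62.5 and 68.5 CPM in M0. Both polarized states lay above M0, by 0.43 (SE 0.12, adjusted p = 0.0053) and 0.47 on the log2 scale (SE 0.12, adjusted p = 0.01), and overlapped with each other (-0.04, SE 0.12, adjusted p = 0.76). Ccr2, the Ccl2 receptor, was at 1.73, 1.89 and 2.18 CPM in M1-like samples, below the 6.80, 6.36 and 5.11 CPM of M0 and the 8.08, 6.13 and 4.50 CPM of M2-like samples. M1-like macrophages therefore had 3.13 times less than M0 (log2 fold change -1.65, SE 0.21, adjusted p = 1.7e-05), and M2-like did not differ from M0 beyond the spread between mice (0.03, SE 0.19, adjusted p = 0.93). Ccr3, the eotaxin receptor, was rare, with 27, 32 and 23 counts in M2-like, 9, 3 and 10 in M0 and 3, 1 and 3 in M1-like samples. M2-like macrophages had 3.77 times the level of M0 (log2 fold change 1.91, SE 0.37, adjusted p = 0.0026), at 0.417 to 0.625 CPM. For M1-like against M0 the value of Ccr3 was -1.27 (SE 0.60, adjusted p = 0.075), and this difference passed the threshold once mouse 2 was left out of M0 (adjusted p = 0.015). Of the eosinophil markers Siglecf alone reached 1 CPM, with a sum of the list of 13.8 to 18.6 CPM in M2-like, 15.6 to 17.1 in M0 and 0.416 to 0.919 CPM in M1-like samples.

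Cx3cr1 and Cxcr4 were highest without stimulus. Cx3cr1, the fractalkine receptor, was at 1.98, 2.22 and 1.40 CPM in M0 and fell to 0.189, 0.153 and 0.146 CPM in M1-like (7, 6 and 7 counts) and 0.208, 0.141 and 0.0544 CPM in M2-like samples (9, 8 and 3 counts). Both falls passed the test (log2 fold change -3.51, SE 0.32, adjusted p = 9.4e-07, and -3.82, SE 0.32, adjusted p = 7.9e-06). The polarized states overlapped (0.31, SE 0.49, adjusted p = 0.59). Cxcr4, the Cxcl12 receptor, was at 152, 145 and 151 CPM in M0, 87.9, 94.0 and 91.1 CPM in M2-like and 32.9, 27.5 and 17.4 CPM in M1-like samples, without overlap between any of the conditions. M1-like macrophages had 5.78 times less Cxcr4 than M0 (log2 fold change -2.53, SE 0.17, adjusted p = 4.3e-08) and M2-like 1.64 times less (-0.72, SE 0.16, adjusted p = 0.0057).

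In the untransfected macrophages of the reprogramming experiment, Ccr1 was the member with the highest level in M1-like cells, Ccr2 and Cx3cr1 were close to absent there, and Ccr7 was near 1 CPM. In M1-like against M0, 5 of the 6 members tested were called (2 higher, 3 lower) beside 57.7% of all genes. In M2-like against M0, 4 of 6 were called (1 higher, 3 lower) beside 19.9%, and in M1-like against M2-like all 6 were called (3 higher, 3 lower) beside 61.5%. Marker sums also differed in these M1-like macrophages. Macrophage markers summed to 6642 to 7786 CPM against 16475 to 16833 in M0 and 15934 to 18320 in M2-like samples. B cell markers, of which 5 of 6 were called lower against M0 and 6 of 6 against M2-like, were at 4.64 to 19.5 CPM against 21.5 to 66.8 and 35.0 to 78.8 CPM. Lower sums were also found for mesothelial and fibroblast markers (15.2 to 36.6 against 52.1 to 95.9 and 49.0 to 180 CPM), eosinophil markers (0.610 to 1.70 against 15.7 to 23.9 and 15.2 to 17.8 CPM), dendritic cell markers (5.42 to 9.58 against 15.6 to 19.5 and 15.5 to 35.0 CPM), neutrophil markers (81.3 to 92.6 against 134 to 167 and 104 to 115 CPM) and mast cell markers (0.189 to 1.07 against 2.32 to 4.34 and 3.43 to 9.80 CPM). The sum of the T and NK cell markers was higher, at 2.32 to 4.16 against 0.805 to 1.80 and 0.930 to 1.61 CPM. In these M1-like samples 1 of the 8 genes of this list reached 1 CPM, and Cd3e, Cd3d and Cd8a had no count. The part of these differences in the levels of the receptors was not tested.

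Ccr1 was at 279, 308 and 268 CPM in M1-like, 47.1, 58.9 and 49.8 CPM in M0 and 52.2, 62.3 and 48.3 CPM in M2-like macrophages. M1-like samples stood apart, at 5.48 times the level of M0 (log2 fold change 2.45, SE 0.16, adjusted p = 1.6e-14) and 5.25 times that of M2-like macrophages (2.39, SE 0.16, adjusted p = 2.1e-14). Ccr2 went the other way, with 5, 2 and 3 counts (0.134 to 0.305 CPM) in M1-like samples, 10.3, 13.4 and 9.28 CPM in M0 and 5.65, 8.64 and 7.54 CPM in M2-like macrophages. Its M1-like level was 50.2 times below that of M0 (log2 fold change -5.65, SE 0.46, adjusted p = 2.4e-12). M2-like samples also lay below M0, but this did not pass the test (-0.60, SE 0.27, adjusted p = 0.13), except when low genes were not filtered (adjusted p = 0.022) or the model held the compared groups alone (adjusted p = 0.041). Ccr3 had no count in any of the 3 M1-like samples, each of which allows up to 0.183 to 0.201 CPM, against 6, 4 and 7 counts in M0 and 4, 5 and 4 in M2-like samples. Set against a limit of 3 counts over the M1-like group, the observed level was 6.01-fold higher in M0 and 4.58-fold higher in M2-like macrophages. The counting error of the M0 and M2-like counts is not in these ratios.

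Cx3cr1 had 0, 0 and 1 count in the M1-like samples, whereas M0 had 3.07, 4.34 and 3.61 CPM and M2-like macrophages 0.215, 1.16 and 0.595 CPM. Over the groups, 165 counts in M0 stood against 1 count in M1-like macrophages, a ratio of 175 with an exact 95% counting interval of 31.0 to 6959, and the 30 counts in M2-like macrophages gave a ratio of 31.7 (5.27 to 1294). Both differences passed the test (adjusted p = 3.8e-09 and 0.00027), but the fitted values rest on that single count, moving from -7.00 to -8.90 and from -4.54 to -6.45 without replicate 3 of M1-like. M2-like macrophages had 5.48 times less Cx3cr1 than M0 (log2 fold change -2.45, SE 0.46, adjusted p = 0.00021), and -3.14 without replicate 2 of M2-like, the highest of the 3. Without replicate 2 of M2-like, the value against M1-like was -3.86.

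Ccrl2 was at 75.9, 67.4 and 66.3 CPM in M0, 150, 109 and 121 CPM in M2-like macrophages and 233, 208 and 204 CPM in M1-like ones, in 3 separate ranges. M1-like had 3.08 times (log2 fold change 1.62, SE 0.13, adjusted p = 9.3e-13) and M2-like 1.81 times the level of M0 (0.86, SE 0.12, adjusted p = 5.6e-06), so that M2-like samples lay above M0 here and below it at 24 h. Ccr7 was at 0.855, 1.0 and 0.946 CPM in M1-like and 1.10, 1.30 and 0.750 CPM in M0, which overlapped (-0.17, SE 0.41, adjusted p = 0.73). M2-like samples were lower, at 0.143, 0.193 and 0.132 CPM with 2 to 3 counts each (log2 fold change against M0 -2.69, SE 0.56, adjusted p = 0.00066, and of M1-like against M2-like 2.52, SE 0.56, adjusted p = 0.00027). Cxcr4 was at 92.7, 86.3 and 75.8 CPM in M1-like, below the 161, 148 and 151 CPM of M0 (-0.85, SE 0.11, adjusted p = 2.7e-08) and the 138, 105 and 125 CPM of M2-like samples (-0.53, SE 0.11, adjusted p = 6.2e-05). The smaller difference of M2-like from M0 (-0.32, SE 0.10, adjusted p = 0.026) was lost without replicate 1 or 3 of M0 or replicate 2 of M2-like (adjusted p = 0.054 to 0.19). Ackr3 had 3, 34 and 0 counts in the M1-like samples, so that 1 library held nearly all of them, and 0 to 4 counts in the M0 and M2-like samples.

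**Figure D2:**
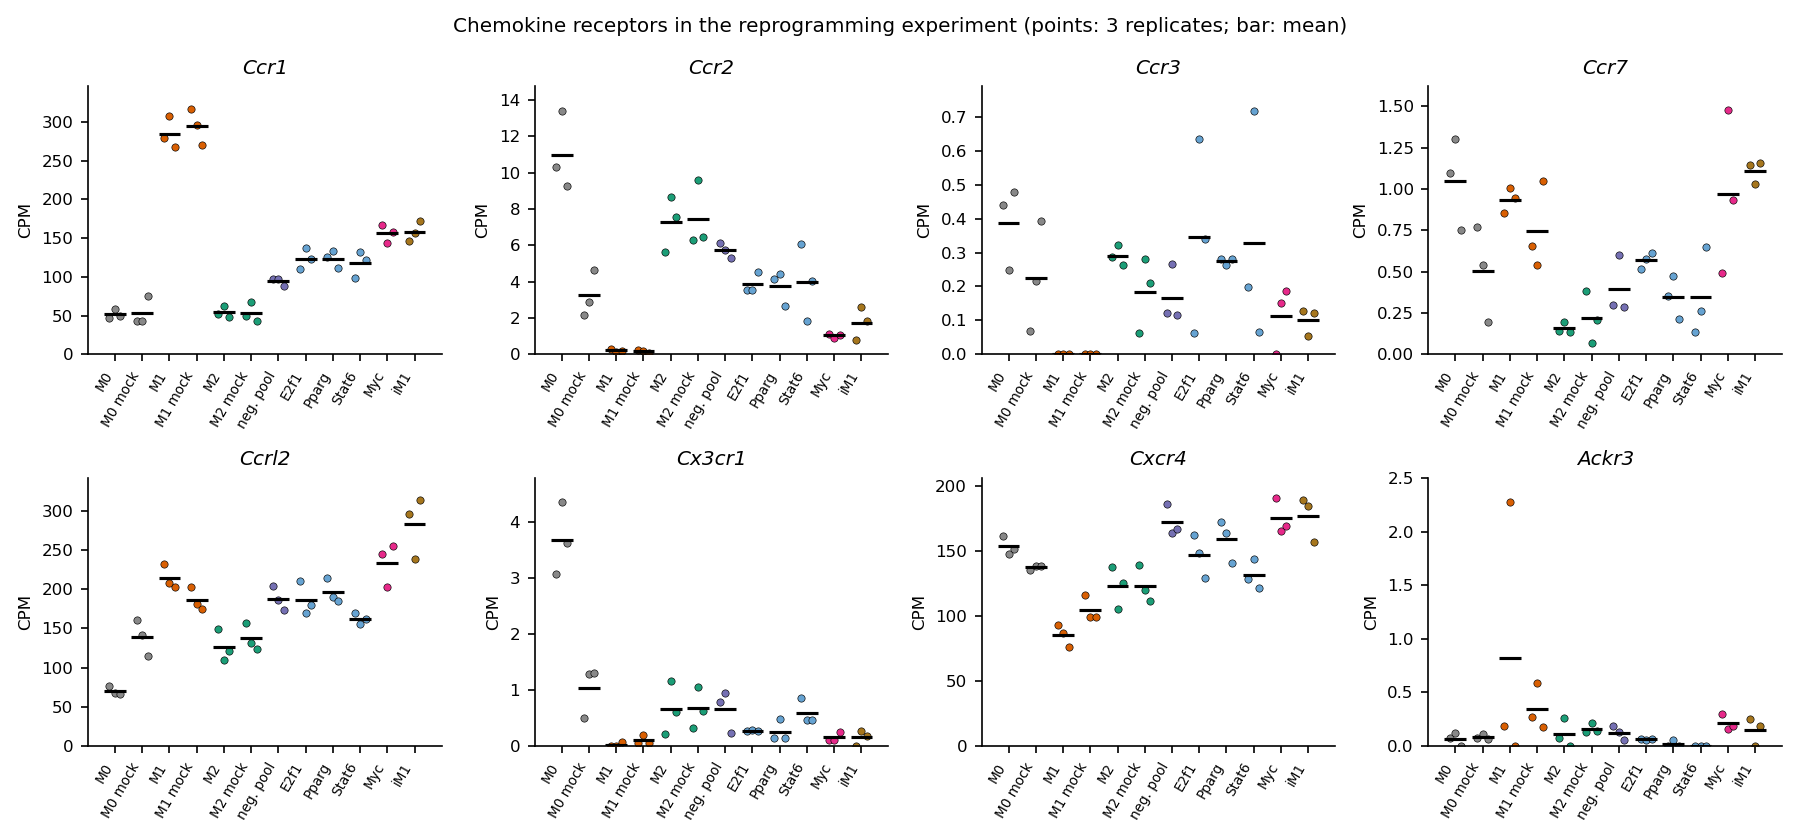
Normalized level in CPM (y axis) of the 8 genes in the 12 conditions of the reprogramming experiment (x axis), where E2f1, Pparg, Stat6, Myc and iM1 are siRNA pools in M2-like macrophages; points are the 3 replicates and the bar is their mean. Ccr1 is highest in M1-like macrophages (268 to 316 CPM with and without mock), Ccr2 lowest there, and Ccrl2 and Cxcr4 have their highest means in iM1 macrophages.

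Mock transfection moved the receptors of M0 macrophages and left those of the polarized ones below the threshold. In M0 mock against M0, 3 of 6 members were called (1 higher, 2 lower) beside 20.4% of all genes. Ccrl2 was at 161, 142 and 114 CPM after mock transfection, above the 66.3 to 75.9 CPM without it (log2 fold change 0.99, SE 0.12, adjusted p = 3.6e-07). Ccr2 was at 2.17, 2.90 and 4.64 CPM, below 9.28 to 13.4 CPM (-1.76, SE 0.30, adjusted p = 4e-05), and Cx3cr1 at 0.491, 1.29 and 1.31 CPM, below 3.07 to 4.34 CPM (-1.81, SE 0.43, adjusted p = 0.0024). Ccr7 was not called (-1.07, SE 0.45, adjusted p = 0.089), except without replicate 1 of M0 mock (adjusted p = 0.049). In the same M0 mock samples macrophage markers summed to 12779 to 15563 CPM against 16475 to 16833 without transfection, eosinophil markers to 9.08 to 12.7 against 15.7 to 23.9 CPM, dendritic cell markers to 21.1 to 40.1 against 15.6 to 19.5 CPM and mesothelial and fibroblast markers to 94.3 to 151 against 52.1 to 95.9 CPM, and their part was not tested. In M1-like mock against untransfected M1-like macrophages 0 of 6 members and 0% of all genes were called by edgeR, with 438 genes and 1 member (Cxcr4, 0.30, SE 0.10) at an unadjusted p under 0.05, and DESeq2 called 0 genes and no member. In M2-like mock against untransfected M2-like macrophages no member was called by edgeR or DESeq2, and none had an unadjusted p under 0.05, beside 1.77% of all genes.

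Within the mock-transfected macrophages, M1-like again had more Ccr1 and less Ccr2 than M0, and M2-like differed from M0 in Ccr2 alone. M1-like mock against M0 mock gave 5 called members of 6 (2 higher, 3 lower) beside 60.4% of all genes, M2-like mock against M0 mock gave 1 of 6 (higher) beside 3.83%, and M1-like mock against M2-like mock gave 5 of 6 (3 higher, 2 lower) beside 60.7%. Ccr1 was at 316, 296 and 270 CPM in M1-like mock, 42.5, 43.5 and 75.2 CPM in M0 mock and 49.6, 67.9 and 43.1 CPM in M2-like mock samples, a log2 fold change of 2.45 against M0 mock (SE 0.16, adjusted p = 1.6e-14). Ccr2 had 4, 4 and 1 counts in M1-like mock, the lowest of the 3 conditions (-4.27 against M0 mock, SE 0.52, adjusted p = 2.5e-08). In M2-like mock it was at 6.27, 9.61 and 6.48 CPM, above M0 mock (1.20, SE 0.30, adjusted p = 0.02), a call that was lost with the compared groups alone in the model (adjusted p = 0.087) and without replicate 1 or 2 of M0 mock or replicate 2 of M2-like mock (0.087 to 0.15). Ccr3 had no count in M1-like mock, against 11 counts over the M0 mock group and 8 over the M2-like mock group. These levels were 4.26-fold and 3.38-fold above a limit of 3 counts in M1-like mock, without their own counting error.

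Ccrl2 after mock transfection was at 203, 181 and 175 CPM in M1-like, 161, 142 and 114 CPM in M0 and 157, 131 and 124 CPM in M2-like macrophages. M1-like mock was thus 1.34 times above M0 mock (log2 fold change 0.42, SE 0.12, adjusted p = 0.0035). Cxcr4 was at 116, 98.6 and 98.8 CPM in M1-like mock, below the 135 to 138 CPM of M0 mock (-0.39, SE 0.10, adjusted p = 0.0017). Against M2-like mock it was not called (-0.24, SE 0.10, adjusted p = 0.051), and this difference passed the threshold with DESeq2 (adjusted p = 0.022), with RLE size factors (0.026), with other filters (0.018 and 0.035), with the compared groups alone (0.047), with the replicate number as a block (0.009), and without replicate 1 of M1-like mock or replicate 3 of M2-like mock (0.019 to 0.023). Cx3cr1 had 1, 4 and 1 counts in M1-like mock, less than M0 mock (-3.20, SE 0.68, adjusted p = 0.00015) and M2-like mock (-2.54, SE 0.74, adjusted p = 0.0036), or -4.04 and -3.38 without replicate 2 of M1-like mock. Ccr7 was higher in M1-like mock than in M2-like mock (1.68, SE 0.53, adjusted p = 0.0075). That value was 2.34 without replicate 1 of M2-like mock, and the call was lost without its replicate 2 (adjusted p = 0.054).

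The effect of mock transfection on the polarization differences was tested as an interaction. For M1-like against M0, 2 of 6 members differed between mock and untransfected macrophages (1 higher, 1 lower) beside 9.07% of all genes, Ccrl2 with -1.20 (SE 0.17, adjusted p = 1.3e-05) and Cxcr4 with 0.46 on the log2 scale (SE 0.15, adjusted p = 0.044). The value of Cxcr4 lost its call without any of 9 of the 12 samples (adjusted p = 0.056 to 0.13), with RLE size factors (0.054) and with the compared groups alone (0.051). For M2-like against M0, 2 of 6 members differed (1 higher, 1 lower) beside 5.66%, Ccr2 with 1.79 (SE 0.41, adjusted p = 0.0063) and Ccrl2 with -0.87 (SE 0.17, adjusted p = 0.0018). Both tests share the M0 samples, in which Ccrl2 was higher and Ccr2 lower after mock transfection.

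**Figure D3:**
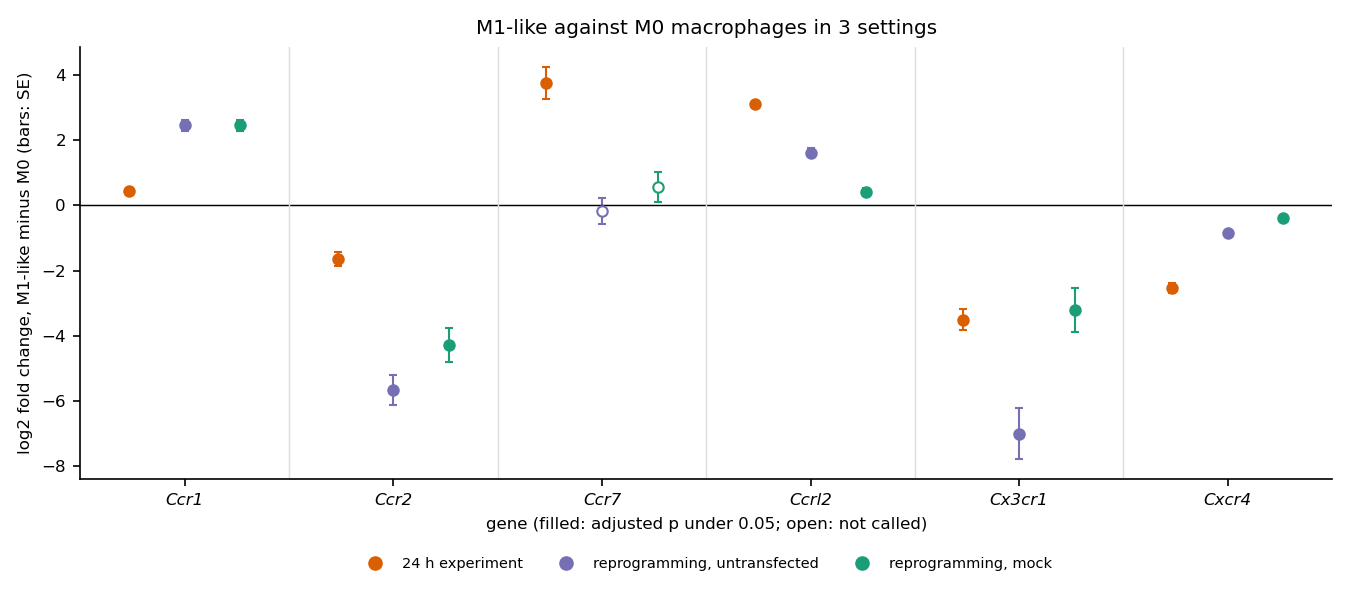
Log2 fold change of M1-like against M0 macrophages (y axis) for the 6 members tested in both experiments (x axis), at 24 h and in the untransfected and mock-transfected macrophages of the reprogramming experiment; bars are standard errors, filled points are called and open points are not. Ccr1 is at 0.43 at 24 h and 2.45 in the other settings, and Ccr7 is at 3.76 at 24 h and not called elsewhere; the plotted value of Cx3cr1 in untransfected macrophages (-7.00) rests on 1 count.

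Between the 24 h and the reprogramming experiment, the difference of M1-like from M0 changed in all 7 members tested in a joint model of 15835 genes, beside 49.0% of all genes. Ccr1 rose less at 24 h (difference of the log2 fold changes -2.03, SE 0.22, adjusted p = 3.1e-10), and Ccrl2 (1.48, SE 0.17, adjusted p = 1.2e-09) and Ccr7 (3.92, SE 0.74, adjusted p = 2.8e-05) rose more. Cxcr4 fell more at 24 h (-1.69, SE 0.18, adjusted p = 5.7e-10). Ccr2 fell less at 24 h (4.01, SE 0.59, adjusted p = 3.4e-07). The same sign was found for Cx3cr1 (3.60, SE 1.20, adjusted p = 0.012) and Ccr3 (4.83, SE 1.87, adjusted p = 0.031). For these 2 genes the M1-like samples of the reprogramming experiment held 1 and 0 counts, so that the fitted values depend on the prior count. Ccr7 was 4.59 without mouse 1 of M0, Cx3cr1 was 5.79 without replicate 3 of M1-like and lost its call without replicate 1 (adjusted p = 0.052), and Ccr3 lost its call without any of 6 of the 12 samples (0.051 to 0.071).

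For M2-like against M0, 2 of the 7 members differed between the experiments (1 higher, 1 lower) beside 17.2% of all genes. Ccrl2 fell at 24 h and rose in the reprogramming experiment (difference -1.89, SE 0.17, adjusted p = 1.5e-10), and Ccr3 differed by 2.31 (SE 0.80, adjusted p = 0.043), a call lost with DESeq2 (0.074), without a filter (0.062) and without any of 8 of the 12 samples (0.068 to 0.12). Ccr7 was not called (2.60, SE 1.03, adjusted p = 0.077), but was with DESeq2 (0.028), without a filter (0.026), with the mouse or replicate number as a block (0.018) and without mouse 1 of M0 or mouse 2 or 3 of M2-like (0.014 to 0.032). Its value without mouse 1 of M2-like was 1.48. The experiments differed in read length and layout (50 nucleotides single-end against 150 nucleotides paired-end). They also differed in sequencing site, as the paper names a core facility in Heidelberg for the former and Novogene for the latter. Time, culture and library preparation may differ as well. When RNA of the untransfected macrophages of the reprogramming experiment was taken is not given in the sources used here. These differences cannot be told apart.

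The negative siRNA pool itself moved 3 receptors upward in M2-like macrophages. Against M2-like mock, 3 of 6 members were called (all higher) beside 11.7% of all genes. Ccr1 was at 96.8, 97.1 and 88.6 CPM with the negative pool and at 49.6, 67.9 and 43.1 CPM in the mock samples (log2 fold change 0.81, SE 0.16, adjusted p = 0.00051). Cxcr4 was at 186, 163 and 166 CPM against 139, 119 and 111 CPM (0.48, SE 0.10, adjusted p = 0.0016), and Ccrl2 at 205, 186 and 174 CPM against 157, 131 and 124 CPM (0.45, SE 0.12, adjusted p = 0.012). In each of the 3 genes the ranges did not overlap, and Ccrl2 lost its call without replicate 3 of the mock or replicate 1 of the negative pool (adjusted p = 0.079 to 0.088). Macrophage markers were lower with the negative pool (12429 to 13475 against 14738 to 15998 CPM), and mesothelial and fibroblast markers (130 to 192 against 71.2 to 125 CPM), eosinophil markers (33.5 to 38.8 against 18.7 to 19.9 CPM), neutrophil markers (120 to 135 against 96.4 to 115 CPM) and mast cell markers (5.47 to 8.12 against 3.01 to 5.37 CPM) were higher, without overlap. With the negative pool 1 of the 6 eosinophil genes reached 1 CPM, and Epx, Prg2, Prg3 and Ear6 had no count. S100a9, Ly6g and Retnlg of the neutrophil list had no count there either. The part of these marker sums in the levels of the receptors was not tested.

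Against M2-like mock, all 6 members were called in iM1 macrophages (4 higher, 2 lower, beside 37.1% of all genes) and in the Myc knockdown (4 higher, 2 lower, beside 38.7%). It was 3 of 6 in the E2f1 knockdown (2 higher, 1 lower, beside 11.6%), 4 of 6 in the Pparg knockdown (3 higher, 1 lower, beside 17.2%) and 2 of 6 in the Stat6 knockdown (1 higher, 1 lower, beside 11.5%). Ccr1 was higher in all 5 of these conditions, by 1.13 to 1.56 on the log2 scale, where the negative pool alone gave 0.81. These comparisons share the mock samples. Ccr2 was lower in all 5, by 2.84 in the Myc knockdown, 2.07 in iM1 macrophages and 0.90 to 0.98 with the other pools, and the last 3 calls were lost in 2 to 5 of the 6 fits that left out 1 sample (adjusted p of the Stat6 knockdown 0.05 to 0.28, of E2f1 0.11 to 0.17 and of Pparg 0.11 to 0.13). The Stat6 call of Ccr2 was also lost with the compared groups alone in the model (0.091). Ccr7 was higher in iM1 macrophages (2.26) and in the Myc knockdown (2.06), or 2.92 and 2.72 without replicate 1 of M2-like mock. Cx3cr1 was lower in both (-2.02, adjusted p = 0.023, and -2.14, adjusted p = 0.015), calls that were lost without replicate 2 of the mock or replicate 1 of either pool, and for the Myc knockdown also without its replicate 2 (0.058 to 0.15). Without replicate 2 of iM1 its value was -2.73. Ccrl2 in the E2f1 knockdown (0.44) lost its call without any of 3 of the 6 samples (0.054 to 0.11), and Cxcr4 in the Pparg knockdown (0.37) without either of 2 (0.071 to 0.078).

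Against the negative siRNA pool, which shares the transfection of siRNA, iM1 macrophages and the Myc knockdown had more Ccr1, Ccr7 and Ccrl2 and less Ccr2 and Cx3cr1. In iM1 macrophages 5 of 6 members were called (3 higher, 2 lower) beside 26.5% of all genes, and in the Myc knockdown 5 of 6 (3 higher, 2 lower) beside 29.6%. In the E2f1 knockdown 0 of 6 members were called by edgeR or DESeq2 (2 at an unadjusted p under 0.05) beside 0.910%, in the Pparg knockdown 0 of 6 by either tool (1 at an unadjusted p under 0.05) beside 5.74%, and in the Stat6 knockdown 1 of 6 (lower) beside 1.51%. When 1 sample was left out, 3 to 5 members were called in iM1 macrophages, 3 in every fit of the Myc knockdown and 0 in every fit of the Stat6 knockdown. These 5 comparisons share the samples of the negative pool. The paper names Dharmacon as the source of the Myc siRNA and siTools Biotech for the E2f1, Pparg and Stat6 pools. The supplier of the negative pool is not given there. The Dharmacon siRNA was thus in the Myc knockdown and iM1 macrophages alone, and its target and supplier cannot be told apart.

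Ccr1 was at 147, 156 and 172 CPM in iM1 macrophages and 167, 144 and 158 CPM in the Myc knockdown, above the 88.6 to 97.1 CPM of the negative pool (log2 fold change 0.75, SE 0.15, adjusted p = 0.0004, and 0.73, SE 0.15, adjusted p = 0.00046). The E2f1, Pparg and Stat6 knockdowns lay in between, at 110, 137 and 122, at 125, 133 and 111, and at 98.6, 132 and 122 CPM. Their differences of 0.39, 0.39 and 0.32 were not called (adjusted p = 0.3, 0.14 and 0.4), although no sample of them overlapped with the negative pool. For E2f1 and Pparg the difference passed the threshold without a filter (0.0091 and 0.002) and with the compared groups alone (0.018 and 0.0083). Ccr2 was at 1.13, 0.915 and 1.06 CPM in the Myc knockdown and 0.763, 2.61 and 1.82 CPM in iM1 macrophages, below the 6.14, 5.74 and 5.32 CPM of the negative pool. The Myc knockdown had 5.50 times less (log2 fold change -2.46, SE 0.35, adjusted p = 2.8e-06) and iM1 macrophages 3.24 times less (-1.70, SE 0.33, adjusted p = 0.00021). With the other pools Ccr2 ranged from 1.83 to 6.07 CPM and was not called (adjusted p = 0.27 to 0.51).

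Ccrl2 was at 296, 238 and 314 CPM in iM1 macrophages, above the 174 to 205 CPM of the negative pool (log2 fold change 0.59, SE 0.12, adjusted p = 0.00041). In the Myc knockdown it was at 245, 202 and 255 CPM and overlapped with the negative pool (0.32, SE 0.12, adjusted p = 0.046), and this call was lost without any of 4 of the 6 samples (0.1 to 0.19). Ccr7 was low throughout, with 18 to 19 counts in each iM1 sample (1.14, 1.03 and 1.16 CPM), 10 to 29 in the Myc knockdown (0.493, 1.47 and 0.931 CPM) and 5 to 9 with the negative pool (0.301, 0.600 and 0.286 CPM). The iM1 samples lay above all 3 of the negative pool (1.49, SE 0.45, adjusted p = 0.014), a call lost without replicate 1 or 3 of the negative pool (0.064 to 0.074). The Myc samples overlapped with it (1.29, SE 0.46, adjusted p = 0.031), and this call was lost without any of 4 of the 6 samples (0.058 to 0.25), without a filter (0.053) and with the compared groups alone (0.054). Cx3cr1 had 0, 5 and 3 counts in iM1 macrophages and 2, 2 and 4 in the Myc knockdown against 13, 14 and 4 with the negative pool. Its values of -1.97 (SE 0.70, adjusted p = 0.035) and -2.09 (SE 0.69, adjusted p = 0.021) lost their calls without any of 4 of the 6 samples each (0.069 to 0.15 and 0.074 to 0.1), and the first was -2.68 without replicate 2 of iM1.

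Cxcr4 was at 189, 184 and 157 CPM in iM1 macrophages and 191, 165 and 169 CPM in the Myc knockdown, in the range of the negative pool (0.04, SE 0.10, 95% interval -0.16 to 0.24, and 0.02, SE 0.10, -0.18 to 0.23). In the Stat6 knockdown it was at 128, 143 and 121 CPM, below every sample of the negative pool (-0.39, SE 0.10, adjusted p = 0.044), and this call was lost whichever of the 6 samples was left out (0.056 to 0.21). Ackr3 had 4, 0 and 3 counts in iM1 macrophages, 6, 3 and 3 in the Myc knockdown and none in the 3 samples of the Stat6 knockdown, and Ccr3 had 2, 1 and 2 counts in iM1 macrophages and 0, 3 and 3 in the Myc knockdown. At these counts no difference was detectable.

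**Figure D4:**
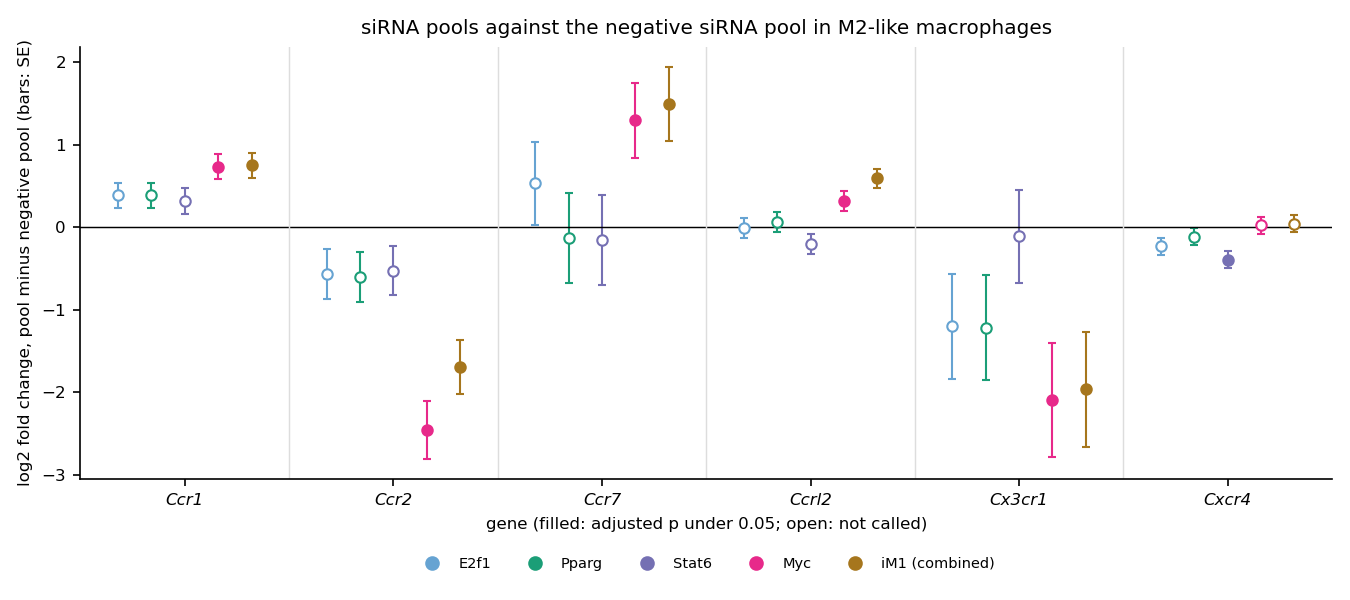
Log2 fold change of each siRNA pool against the negative siRNA pool in M2-like macrophages (y axis) for the 6 members tested (x axis); bars are standard errors, filled points are called and open points are not. The Myc knockdown and iM1 macrophages went in the same direction in each gene called in them, at -2.46 and -1.70 for Ccr2 and at 0.73 and 0.75 for Ccr1. Apart from them Cxcr4 in the Stat6 knockdown (-0.39) is the one called value, and this call was lost whichever sample was left out.

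The Myc knockdown was set against the mean of the other 3 single knockdowns, a comparison added after these values were seen. In it 5 of 6 members were called (4 higher, 1 lower) beside 32.6% of all genes. Ccr2 was lower in the Myc knockdown (log2 fold change -1.89, SE 0.32, adjusted p = 2.5e-05), and Ccr7 (1.21, SE 0.35, adjusted p = 0.0078), Ccr1 (0.37, SE 0.12, adjusted p = 0.019), Ccrl2 (0.37, SE 0.10, adjusted p = 0.0036) and Cxcr4 (0.27, SE 0.08, adjusted p = 0.012) were higher. Without 1 replicate of the Myc knockdown, the calls of Ccr7 (replicate 2, adjusted p = 0.2), Ccrl2 (replicate 3, 0.052), Cxcr4 (replicate 1, 0.12) and Ccr1 (replicate 1 or 3, 0.071 to 0.1) were lost, while Ccr2 kept its call in each of 12 such fits. Cx3cr1 was not called (-1.25, SE 0.65, adjusted p = 0.14). The Myc siRNA came from another supplier than the other 3, so target and supplier cannot be told apart in this comparison.

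Between iM1 macrophages and the Myc knockdown, also compared after the values were seen, no member was called by edgeR or DESeq2, with 1 of 6 at an unadjusted p under 0.05, beside 0.0494% of all genes. The 95% intervals of the log2 difference were -0.28 to 0.31 for Ccr1, -0.19 to 0.21 for Cxcr4, 0.04 to 0.51 for Ccrl2, -0.03 to 1.55 for Ccr2, -0.56 to 0.96 for Ccr7 and -1.61 to 1.86 for Cx3cr1. These bounds leave room for a difference of over 2-fold in Ccr2 and Cx3cr1. The combined pool also left more E2f1 and Stat6 than the single pools did, at 60.4% and 53.9% of the negative pool against 25.2% and 27.3%, whereas Myc was at 39.6% and 38.0%.

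iM1 macrophages did not reach the receptor levels of M1-like mock macrophages in Ccr1 and Ccr2 and exceeded them in Ccrl2 and Cxcr4. In this comparison 4 of 6 members were called (3 higher, 1 lower) beside 52.9% of all genes. Ccr1 was at 147 to 172 CPM in iM1 and at 270 to 316 CPM in M1-like mock macrophages (log2 fold change -0.90, SE 0.15, adjusted p = 8.6e-06). Ccr2 was 10.5 times higher in iM1 (3.39, SE 0.58, adjusted p = 9.4e-06), where the M1-like mock samples held 4, 4 and 1 counts. Cxcr4 was higher by 0.76 (SE 0.10, adjusted p = 2.9e-07) and Ccrl2 by 0.60 (SE 0.12, adjusted p = 9e-05), and the ranges of these 4 genes did not overlap. Ccr7 (0.58, SE 0.40, adjusted p = 0.23) and Cx3cr1 (0.53, SE 0.94, adjusted p = 0.66) were not called.

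Over the 12 reprogramming conditions, neighbours in the order of a member's means mostly overlapped. Of the 11 neighbouring pairs of conditions in that order, the ranges of the replicates overlapped in 7 for Ccr1, 9 for Ccrl2 and Cx3cr1, 10 for Ccr2, Ccr3, Cxcr4 and Ackr3 and 11 for Ccr7. Ccr1 had the 2 M1-like conditions on top, then iM1 and Myc, then the other 3 knockdowns, then the negative pool, and below it the M0 and M2-like conditions with or without mock. Ccr2 ran nearly the other way (Pearson r = -0.90 and Spearman rho = -0.83 of the mean log2 CPM with Ccr1 over the 12 conditions), and so did Cx3cr1 (-0.85 and -0.97). Ccr2 and Cx3cr1 went together (0.80 and 0.78), and so did Ccr1 and Ccrl2 (0.73 and 0.78). These are descriptions over 12 means of the same experiment. The siRNA conditions among them all started from M2-like macrophages, and the M0 and M1-like conditions did not.

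Among 10130 genes with a mean log2 CPM of at least 2, those with the pattern most like a member over the 12 conditions were, by Pearson r, Pwp1 (0.988), Mrpl35 (0.987) and Zfp287 (0.979) for Ccr1 and Glud1 (0.989), Cyfip1 (0.986) and Itga6 (0.985) for Ccr2. For Ccrl2 they were Src (0.983), Stim2 (0.983) and Il1a (0.978), for Cx3cr1 Bmf (0.977), Fmnl3 (0.966) and Ttc38 (0.963), for Ccr7 Msantd2 (0.954), Lzic (0.929) and Tbc1d10b (0.926), and for Cxcr4 Sirpb1c (0.942), Arf2 (0.935) and Otub1 (0.918). Ranked by Spearman rho, the first gene stayed among the top 3 for 1 of the 6 members, Ccrl2 with Src.

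Of 17 other chemokine receptors, 11 passed the filter at 24 h and 7 in the reprogramming experiment. For M1-like against M2-like cells at 24 h, 6 were higher, 4 lower and 1 not called, with a median log2 fold change of 1.30 against -0.06 over all genes, of which 72.6% were called. In the untransfected macrophages of the reprogramming experiment 0 were higher and 3 lower of 7 tested (median -0.37 against 0.03), beside 61.5% of all genes called. At 24 h the 4 with the largest values were all rare. Ccr6 had 10 to 13 counts per M1-like sample and 0 to 1 per M2-like sample, Xcr1 (3.25, SE 0.40, adjusted p = 1.3e-05) and Cxcr5 (2.36, SE 0.33, adjusted p = 4.6e-05) were higher at up to 2.65 CPM, and Cxcr2, the receptor of neutrophil-attracting chemokines, had 0 to 1 counts in M1-like against 10 to 13 in M2-like samples. Cmklr1, the signalling receptor of chemerin, was at 175 to 209 CPM in M1-like samples at 24 h, where Ccrl2 was also highest, and at 42.4 to 45.1 CPM in M0 and M2-like samples. In untransfected M1-like against M2-like macrophages Cmklr1 was lower (-0.37, SE 0.13, adjusted p = 0.012), where Ccrl2 was higher. In iM1 against the negative pool 2 were higher and 1 lower of 7 tested (median 0.35 against 0.01 over all genes, 26.5% of them called), Cxcr2 with -1.51 (SE 0.41, adjusted p = 0.0067), Cxcr1 with 0.80 (SE 0.30, adjusted p = 0.048) and Cmklr1 with 0.35 (SE 0.12, adjusted p = 0.035).

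Of 15 genes for ligands of the members, 11 were tested at 24 h, of which 6 had higher and 4 lower levels in M1-like cells when set against M2-like ones (median 1.62 against -0.06 over all genes, 72.6% of them called). In untransfected M1-like against M2-like macrophages of the other experiment it was 4 higher and 4 lower of 9 (median -0.65 against 0.03, 61.5% of all genes called). Ccl5, a ligand of Ccr1 and Ccr3, was at 4222 to 4469 CPM in M1-like samples and 1.45 to 2.57 CPM in M2-like ones (11.14, SE 0.26, adjusted p = 3.5e-12), and Ccl2, the ligand of Ccr2, at 437 to 576 CPM against 3.36 to 4.61 CPM (6.99, SE 0.18, adjusted p = 9.1e-12). Cxcl11, which Ackr3 takes up, was at 40.3 to 65.3 CPM in M1-like samples and had no count in M0 and M2-like samples, and Ccl12 was at 16.1 to 18.4 CPM against 0 to 1 counts in M2-like samples. In iM1 against the negative pool 5 of 9 tested were higher and 1 lower (median 0.56 against 0.01, 26.5% of all genes called). Ccl5 (1.92, SE 0.49, adjusted p = 0.0039), Ccl2 (1.43, SE 0.26, adjusted p = 9.8e-05), Ccl12 (1.42, SE 0.51, adjusted p = 0.038) and Ccl7 (1.31, SE 0.30, adjusted p = 0.0012) were the 4 largest, all higher. Ccl2 was thus higher in iM1 macrophages, at 43.6 to 70.6 against 16.4 to 24.8 CPM, where its receptor gene Ccr2 was lower.

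Of 18 genes of receptor signalling, all tested, 10 rose and 5 fell from M2-like to M1-like cells at 24 h (median 0.26 against -0.06, 72.6% of all genes called). The Rac exchange factor Prex1 (2.29, SE 0.09, adjusted p = 2.6e-10), the G protein subunit Gna13 (1.68, SE 0.08, adjusted p = 2.2e-09) and Pik3r6, a regulator of phosphoinositide 3-kinase gamma (1.43, SE 0.09, adjusted p = 2.4e-08), were higher, and the phospholipase Plcb2 was lower (-1.34, SE 0.09, adjusted p = 4.7e-08). In the reprogramming experiment M1-like against M2-like macrophages had 3 higher and 8 lower without transfection (median -0.18 against 0.03, 61.5% of all genes called) and 2 higher and 11 lower after mock (median -0.20 against 0.03, 60.7%). In iM1 against the negative pool 0 were higher and 9 lower (median -0.18 against 0.01, 26.5% of all genes called), the largest being Dock2, another Rac exchange factor (-0.56, SE 0.08, adjusted p = 3.2e-06), Pik3r6 (-0.46, SE 0.09, adjusted p = 0.00015), Rac2 (-0.37, SE 0.08, adjusted p = 0.00085) and Elmo1 (-0.36, SE 0.07, adjusted p = 0.00012).

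Of 13 genes of receptor desensitization, 5 rose and 6 fell from M2-like to M1-like cells at 24 h (median 0.14 against -0.06, 72.6% of all genes called), and 2 rose and 8 fell in the untransfected macrophages of the other experiment (median -0.37 against 0.03, 61.5%). At 24 h the 4 with the largest values were lower, namely the regulators of G protein signalling Rgs18, with 0 to 1 counts in M1-like samples and 17.8 to 27.9 CPM in M2-like samples, Rgs2 (-4.18, SE 0.12, adjusted p = 1.7e-11) and Rgs10 (-1.87, SE 0.07, adjusted p = 1.5e-10), and the receptor kinase Grk5 (-2.09, SE 0.07, adjusted p = 1.4e-10). In iM1 against the negative pool 1 was higher and 4 lower (median 0.05 against 0.01, 26.5% of all genes called), with Rgs10 at -0.57 (SE 0.09, adjusted p = 3.2e-05), Rgs18 at -0.56 (SE 0.14, adjusted p = 0.0041), Rgs1 at 0.51 (SE 0.14, adjusted p = 0.0066) and Grk5 at -0.40 (SE 0.12, adjusted p = 0.011).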

How the data were processed

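Libraries were trimmed with Trimmomatic, aligned to mm10 (GRCm38) with TopHat2 and counted with featureCounts, per the labels, and the authors deposited raw read counts per gene. The strand setting of the counting is not given in the sources used here. Technical replicates were summed. Members were matched by gene symbol.

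Counts were tested with edgeR 4.0.16 (R 4.3.3; TMM normalization, filterByExpr with a minimum count of 10 and a minimum total count of 15, quasi-likelihood test, all groups of an experiment in 1 model, Benjamini-Hochberg adjustment over all genes), and the code was tested on simulated data. Experiments were compared in a joint model. The SE is the log2 fold change divided by the square root of F, and 95% intervals are normal approximations from it. CPM used TMM library sizes, and lengths are exon unions. Intervals from counts cover counting error only, and a ratio to a limit of 3 counts leaves out the counting error of the other group. A count of 0 allows up to 3 counts.

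The members and gene lists were chosen with earlier results of these data known. Named were all members in every comparison, per list the up to 4 called genes with the largest absolute log2 fold change in M1-like against M2-like at 24 h and in iM1 against the negative pool, the siRNA targets, and the 3 genes most like each member. At 24 h a mouse number marks the same animal, and deviations of same-mouse samples correlated with r = 0.0973 to 0.243 over 9 pairs. Alternatives were RLE size factors, DESeq2 1.42.0, other filters, a replicate block, only the compared groups, separate technical replicates, a fold limit and leaving out each replicate. Some items were searched or counted but are not reported here.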

Additional observations from a re-analysis of the deposited data

Results flagged for a closer look

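Of the polarization differences that were compared between mock-transfected and untransfected macrophages, 4 differed by a test of the interaction in edgeR. For M1-like against M0, mock minus untransfected was -1.20 for Ccrl2 (adjusted p = 1.3e-05) and 0.46 for Cxcr4 (adjusted p = 0.044) on the log2 scale. For M2-like against M0 it was 1.79 for Ccr2 (adjusted p = 0.0063) and -0.87 for Ccrl2 (adjusted p = 0.0018).

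Between the 24 h and the reprogramming experiment, 9 differences passed the same kind of test. For M1-like against M0, 24 h minus reprogramming was -2.03 for Ccr1, 4.01 for Ccr2, 4.83 for Ccr3, 3.92 for Ccr7, 1.48 for Ccrl2, 3.60 for Cx3cr1 and -1.69 for Cxcr4. For M2-like against M0 it was 2.31 for Ccr3 and -1.89 for Ccrl2. Read length, layout and sequencing site differed between the experiments, and time, culture and library preparation may differ as well. These cannot be told apart.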

How the results depend on the processing

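Of 1392 refitted values of the members, 1278 kept their call, 90 lost it (82 of them when a replicate was left out) and 24 gained one (7 when a replicate was left out). No called value changed its sign. Low counts limit Ccr3, Ccr7, Cx3cr1 and Ackr3 in most conditions. Treating technical replicates as separate samples changed no call. The cause of the other changes was not tested, except that stricter filters test fewer members.

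Asking for at least 10 counts in every sample left fewer members tested, and among these 0 calls were lost and 1 was gained. The lower numbers under this filter thus come from members no longer tested. With it, 3 members were called in M2-like against M0 at 24 h, 3 in M1-like against M0, 2 in M2-like against M0 and 3 in M1-like against M2-like (untransfected), 3, 0 and 3 in the same comparisons after mock transfection and 1 in M0 mock against M0. Against M2-like mock it was 3 in iM1, 3 in Myc and 1 in Stat6, against the negative pool 2 in iM1 and 2 in Myc, 3 in Myc against the other knockdowns, 1 in mock minus untransfected for M2-like, and 3 and 1 between the experiments for M1-like and M2-like.

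When calls also needed a log2 change of 1 or more in size, it was 3 in M2-like against M0 at 24 h, 2 in M2-like against M0 (untransfected), 3 in M1-like against M0 (mock), 0 in the negative pool against mock, 1 each in E2f1, Pparg and Stat6 against mock, 3 each in iM1 and Myc and 0 in Stat6 against the negative pool, 1 in iM1 against M1-like mock, 1 each in mock minus untransfected and 2 in Myc against the other knockdowns. With only the compared groups it was 0 in M2-like mock against M0 mock, 1 in Stat6 against mock, 1 each in E2f1 and Pparg and 3 in Myc against the negative pool, and 1 in mock minus untransfected for M1-like. Without a filter it was 1 each in E2f1 and Pparg against the negative pool, and with RLE size factors 1 in mock minus untransfected for M1-like.

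Leaving out each replicate in turn, which can also let Ccr3 or Ackr3 pass the filter, gave 6 to 7, 5 and 5 called members at 24 h (M1-like against M0, M2-like against M0, M1-like against M2-like), 6 to 7, 3 to 4 and 6 to 8 in untransfected and 5 to 6, 0 to 1 and 5 to 7 in mock-transfected macrophages. It was 3 to 4 in M0 mock against M0, 0 in M1-like and M2-like mock against untransfected, 2 to 3 in the negative pool against mock, and against mock 5 to 6 in iM1, 1 to 3 in E2f1, 5 to 6 in Myc, 3 to 4 in Pparg and 1 to 2 in Stat6. Against the negative pool it was 3 to 5 in iM1, 3 in Myc and 0 in E2f1, Pparg and Stat6, and 4 in iM1 against M1-like mock. It was 1 to 2 and 2 in mock minus untransfected, 5 to 7 and 1 to 3 between the experiments, 3 to 6 in Myc against the other knockdowns and 0 in iM1 against Myc.

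With the mouse or replicate number as a replicate block no call was lost and 4 were gained, giving 6 called members in M1-like mock against M2-like mock, 4 in E2f1 against mock, 3 in Stat6 against mock and 3 between the experiments for M2-like. Besides the values given in the report these were Cxcr4 in E2f1 against mock (adjusted p = 0.023) and Ccrl2 in Stat6 against mock (0.049). In the reprogramming experiment the replicates share only a number: same-numbered samples correlated with r = -0.101 to 0.390, over 0.1 in 115 of 198 pairs, and 35 of 36 samples correlated best with their own number, which is a hint from the data and not from the design.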
